A study of Homo sapiens with 6 samples.

Results

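The genes described here are the human ZNF genes that were expressed in Huh7 hepatoma cells, followed after siRNA treatment against ASGR1. They were selected on symbol and level: the symbol is ZNF, a number and at most 1 closing letter, and the mean over all 6 libraries is at least 2 FPKM (fragment counts divided by exon length and library depth). These were 213 genes of 549 with such a symbol, among 57905 gene IDs in all. The threshold was applied to the mean over both groups, not to the difference between them. The siASGR1 group held 3 libraries of cells transfected with an siRNA against ASGR1, the gene of a subunit of the hepatocyte asialoglycoprotein receptor, and the siControl group held 3 libraries of cells given a scrambled siRNA. All cells were Huh7, harvested 72 h after transfection. Huh7 is a single line from a human liver tumour, and the labels do not give the siRNA sequence or say whether it was a pool. Libraries are numbered in the labels with no word on separate cultures, so the p-values rest on a spread that may be technical.

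Most ZNF genes encode C2H2 zinc finger proteins, in which each finger folds around a zinc ion held by paired cysteines and histidines and reads a few bases of DNA. Many also carry a KRAB domain, which binds the scaffold protein TRIM28 (KAP1). TRIM28 brings in the histone methyltransferase SETDB1 and heterochromatin proteins, and these silence transposable elements and other targets. KRAB genes multiplied by tandem duplication and sit in dense clusters, many of them on chromosome 19. ZNF genes without the domain have more varied roles, from promoter activation to ribosome quality control.

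The promoters of members at the far ends of the response are shown first: ZNF134 and ZNF629 were among the 3 members with the largest increase in siASGR1 cells, and ZNF280A and ZNF620 had the largest decreases. Each runs 5′ to 3′ on the gene's strand, from 250 bases before to 50 after the RefSeq start (GRCh38.p14), and capitals mark the motifs found: CCAAT, the GC box GGGCGG, the E-box CACGTG and the CRE half-site TGACG, on either strand. Of the motifs searched, including 3 more named with their shares, none holds another, and ZNF629 held none of them. The E-box and the CCAAT boxes of ZNF280A have no counterpart in the other 3.
ZNF134 (chr19:57613992-57614291, plus strand): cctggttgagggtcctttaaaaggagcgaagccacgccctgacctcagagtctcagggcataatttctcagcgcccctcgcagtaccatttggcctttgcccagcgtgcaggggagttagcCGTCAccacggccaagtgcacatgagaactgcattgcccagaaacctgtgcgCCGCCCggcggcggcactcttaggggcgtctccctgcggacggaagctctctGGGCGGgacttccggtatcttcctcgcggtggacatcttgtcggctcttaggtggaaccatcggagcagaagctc
ZNF629 (chr16:30787156-30787455, minus strand): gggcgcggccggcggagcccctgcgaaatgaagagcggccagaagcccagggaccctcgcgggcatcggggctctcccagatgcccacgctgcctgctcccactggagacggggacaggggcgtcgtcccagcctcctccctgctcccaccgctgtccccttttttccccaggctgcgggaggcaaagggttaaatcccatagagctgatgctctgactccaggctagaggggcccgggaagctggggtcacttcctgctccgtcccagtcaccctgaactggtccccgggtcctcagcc
ZNF280A (chr22:22520221-22520520, minus strand): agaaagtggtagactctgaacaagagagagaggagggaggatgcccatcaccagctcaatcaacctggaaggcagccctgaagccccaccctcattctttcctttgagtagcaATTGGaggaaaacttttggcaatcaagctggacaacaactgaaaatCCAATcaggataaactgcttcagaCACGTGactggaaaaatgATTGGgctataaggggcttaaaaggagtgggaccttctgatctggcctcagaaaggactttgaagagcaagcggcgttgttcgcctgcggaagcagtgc
ZNF620 (chr3:40505789-40506088, plus strand): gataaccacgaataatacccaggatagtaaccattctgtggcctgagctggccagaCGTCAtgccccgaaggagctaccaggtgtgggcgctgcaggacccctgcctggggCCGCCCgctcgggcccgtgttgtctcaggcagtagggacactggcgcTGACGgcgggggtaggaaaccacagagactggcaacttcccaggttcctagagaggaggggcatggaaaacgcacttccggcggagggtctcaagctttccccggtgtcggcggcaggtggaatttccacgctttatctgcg

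RefSeq promoters were matched for 183 of the 213 genes. CCAAT stood in 59.1% of promoters of KRAB genes, 33.7% of the other ZNF genes, 37.8% of other genes with a mean of at least 2 FPKM and 35.7% of all 27305 promoters. The GC box stood in 68.9% of ZNF promoters, 72.3% of other genes at that level and 44.6% of all promoters. The core letters of the site bound by the member ZNF143 (ACTACAA) stood in 7.65% of ZNF promoters, 4.11% of other genes at that level and 2.95% of all. TGACG was in 31.7% of ZNF promoters against 36.3% of other genes at that level and 25% of all, and CACGTG in 7.65% against 10.5% and 7.43%. TATAAA was in 4.37% against 5.19% and 12%, and the CGCG element TCTCGCG in 5.46% against 7.27% and 3.53%. By response, CCAAT was in 10 of 20 matched promoters of members that rose, 31 of 85 of those that fell and 43 of 78 of those not called. The median GC content was 60.7% in KRAB promoters, 66.7% in the other ZNF promoters and 65.7% in other genes at that level. These shares describe letters in a fixed window and do not show that a factor binds there.

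Libraries held an estimated 18469000 to 19254000 fragments in siASGR1 and 16310000 to 19311000 in siControl, from the smallest steps of the FPKM values. The targeted gene had 4.60, 4.82 and 4.71 FPKM in siASGR1 against 17.54, 17.56 and 16.90 FPKM in siControl in the table of the whole series, or 27.2% of the siControl mean. In the libraries' own files the siASGR1 values were 14.65, 15.81 and 14.04 FPKM, or 85.6% of the same siControl mean. ASGR1 was lower in siASGR1 in both sources (adjusted p = 1.75e-06 and 0.00954), and it was the only gene of 57905 whose values differed between them, so how far ASGR1 was reduced is not settled by these files. All 8 hepatocyte markers rose, with a summed level of 7470 to 7766 FPKM in siASGR1 against 3959 to 4073 FPKM in siControl. Fibroblast markers summed to 0.64 to 0.88 FPKM against 5.55 to 6.72, and endothelial markers to 0.16 to 0.21 FPKM against 0.05 to 0.14 with KDR and TEK at 0. Leukocyte markers summed to 1.86 to 2.06 FPKM against 1.98 to 3.19, and cholangiocyte markers to 41.32 to 42.93 FPKM against 44.21 to 45.60 with KRT7 at 0. Only 1 of 7 fibroblast markers and 1 of 5 leukocyte markers had a mean of at least 1 FPKM, and 0 of 4 endothelial markers. Of 3 cholangiocyte markers tested 1 rose and 1 fell. These low sums rest on few genes and do not show that such cells were present. The part that these shifts play in the ZNF results was not tested, and in such bulk samples fewer cells of a kind and less RNA per cell cannot be told apart.

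ZNF transcripts as a group took a smaller share of the measured RNA in siASGR1 cells. Their summed level was 1138, 1109 and 1140 FPKM in siASGR1 against 1341, 1343 and 1348 FPKM in siControl. Every siASGR1 library lay below every siControl library, and the share of all FPKM was 0.349 to 0.368% in siASGR1 against 0.425 to 0.431% in siControl. Of the 213 genes, 24 (11.3%) rose and 102 (47.9%) fell in limma on log2(FPKM + 1) at an adjusted p under 0.05 over 13568 tested genes, and 87 were not called. Over all tested genes 20.9% rose and 40.4% fell (61.3% in either direction), and over the 10689 other genes with a mean of at least 2 FPKM 23.9% rose and 41.2% fell (65.2%), so the share of ZNF genes that fell was near the background and the share that rose was lower. The median log2 fold change was -0.18 in ZNF genes, -0.13 over all tested genes and -0.11 over those other genes. A median-of-ratios scaling moved the median of all genes by 0.13 on the log2 scale. With it 42 ZNF genes rose and 70 fell, against 29.9% and 28.9% of all tested genes (58.8% in either direction) and 34.1% and 28.7% (62.8%) of the other genes at that level, and the ZNF median was -0.059 against -0.007 over all genes. Under the deposited scaling, the median-of-ratios and a quantile normalization alike, 24 ZNF genes rose and 58 fell. No such count was taken over all tested genes.

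All 213 genes passed the filter of 1 FPKM in at least 3 libraries in either group, so none entered the test through its higher group alone. The mean of 2 FPKM that defines the members is stricter, and some genes reached it only through their higher group. ZNF629 averaged 3.28 FPKM in siASGR1 and 1.53 FPKM in siControl, and ZNF628 averaged 1.26 FPKM in siASGR1 and 2.91 FPKM in siControl. Such genes were kept in the counts and in the rankings of the largest differences. In 29 genes every siASGR1 library was above every siControl library, and in 116 every one was below, where 23.5% and 43.8% (67.3% in all) of the tested genes were separated that way. Differences were small: only ZNF395 and ZNF629 were at least 2-fold higher in mean FPKM, and only ZNF280A, ZNF620 and ZNF628 at least 2-fold lower. Among the 13568 tested genes 488 were at least 2-fold higher and 1275 at least 2-fold lower. Among the 10689 other genes with a mean of at least 2 FPKM these counts were 339 and 644. Differences on the log2(FPKM + 1) scale understate the change of genes at a few FPKM.

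The shift ran with the level of the gene, and it ran the other way in the rest of the transcriptome. The 63 ZNF genes with a mean of 2 to 3 FPKM had a median log2 fold change of -0.10, against -0.19 in other genes of that level. At 3 to 5 FPKM the medians were -0.16 in 68 ZNF genes and -0.18 in other genes. At 5 to 10 FPKM they were -0.28 in 50 ZNF genes and -0.15 in other genes. At the median, low ZNF genes therefore lay at or above other genes of their level, and those over 5 FPKM lay below. At 5 to 10 FPKM this was so for ZNF genes without a KRAB domain (-0.32) and not for those with one (-0.089). At 10 to 20 FPKM the median was -0.34 in 25 ZNF genes and -0.084 in other genes, and at 20 FPKM or more -0.39 in 7 ZNF genes and 0.019 in other genes. Of those 7, none rose and 6 fell, with either scaling, where 38.2% of other genes at that level rose and 33.7% fell as deposited. Across genes, Spearman's rho between mean FPKM and log2 fold change was -0.21 over the 213 ZNF genes and 0.18 over the 10689 others. Genes share libraries and are not independent replicates, so these values are descriptions. Taking each gene's distance from the median of other genes in its level bin, the ZNF median was -0.035 and 53.1% of ZNF genes lay below that median.

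**Figure D1:**
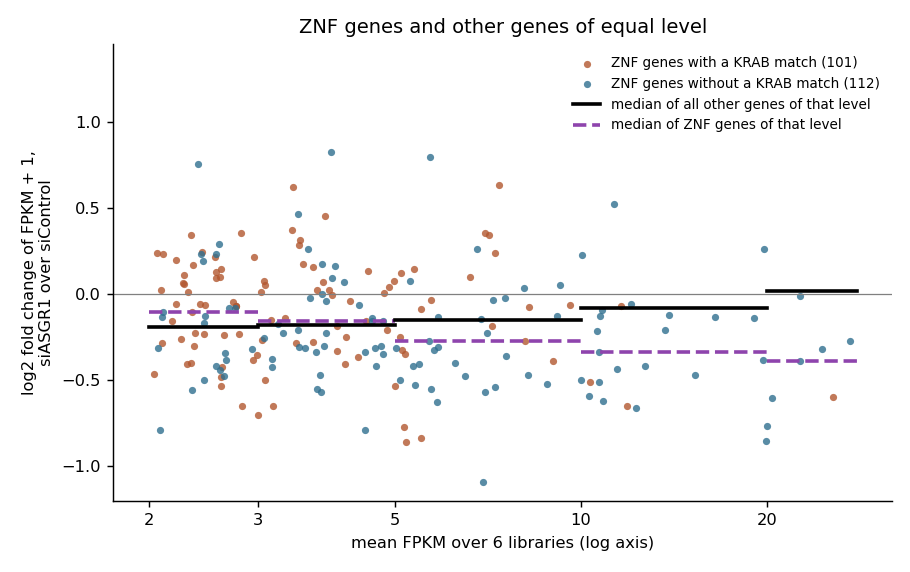
Log2 fold change of FPKM + 1 (siASGR1 over siControl, y axis) against mean FPKM over 6 libraries (x axis, log scale) for 213 ZNF genes, each point a gene, coloured by KRAB match. Dashed lines give the ZNF median in each of 5 level bins and solid lines the median of all other genes there: the ZNF line falls to -0.39 at the right while the other line climbs to 0.019.

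The ZNF genes with a KRAB domain had a median near that of other genes, and those without had a lower one. The domain was called in 101 genes from the coding sequences, where at least 11 of 18 conserved letters of the KRAB A box had to match. The other 112 genes include 3 pseudogenes and a few with a diverged box that missed the match, such as ZNF202 and ZNF263. Of the KRAB genes 12 rose (11.9%) and 36 fell (35.6%), with a median log2 fold change of -0.067. Of the genes without a match 12 rose (10.7%) and 66 fell (58.9%), with a median of -0.30. Over all tested genes these shares were 20.9% and 40.4%, and over other genes at that level 23.9% and 41.2%. With the median-of-ratios scaling 26 KRAB genes rose (25.7%) and 22 fell (21.8%) and their median turned to 0.048, while 16 of the others rose (14.3%) and 48 fell (42.9%) with a median of -0.18, against 29.9% and 28.9% of all tested genes. The direction of the KRAB median thus depended on the scaling, and that of the other ZNF genes did not. No test between the classes was run.

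The same order of the classes was seen within bins of equal level under 10 FPKM. At 2 to 3 FPKM the median was -0.062 in 42 KRAB genes and -0.17 in 21 others. At 3 to 5 FPKM it was 0.0 in 34 KRAB genes and -0.23 in 34 others, and at 5 to 10 FPKM it was -0.089 in 21 KRAB genes and -0.32 in 29 others. Above 10 FPKM only 4 KRAB genes were left, and the order was the reverse. At 10 to 20 FPKM the median was -0.51 in 3 KRAB genes and -0.27 in 22 others. At 20 FPKM or more it was -0.60 in 1 KRAB gene and -0.355 in 6 others. Set against other genes of their level, KRAB genes lay 0.11 above at the median and 40.6% of them lay below, while ZNF genes without a match lay at -0.125 with 64.3% below. In summed level, KRAB genes had 408, 386 and 414 FPKM in siASGR1 against 448, 446 and 463 FPKM in siControl. The other ZNF genes had 730, 722 and 725 FPKM in siASGR1 against 892, 896 and 885 FPKM in siControl. As deposited, both sums were lower in every siASGR1 library, and the gap was wider in the second. The median-of-ratios scaling moves siASGR1 values up against siControl. With it the median log2 fold change was 0.048 in KRAB genes and -0.18 in the others. The lower KRAB sum is therefore given for the deposited values only, and whether it holds with that scaling was not tested.

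The classes differ in build as well as in level. KRAB genes had a median of 12 C2H2 fingers and the other coding ZNF genes 7, with up to 31 in ZNF91, a KRAB gene, and ZNF142, which has no match. The number of fingers did not go with the response: genes with 0 to 4, 5 to 9, 10 to 14 and 15 or more fingers had median log2 fold changes of -0.14, -0.21, -0.24 and -0.14, and Spearman's rho was 0.002 over 210 coding members.

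Chromosome 19 held 78 of the 213 genes (36.6%, against 6.0% of other genes at that level), 55 of them with a KRAB match. On chromosome 19, 10 ZNF genes rose (12.8%) and 26 fell (33.3%), with a median log2 fold change of -0.05, while the 641 other genes of that chromosome had 153 that rose (23.9%) and 265 that fell (41.3%), with a median of -0.10. Elsewhere in the genome 14 ZNF genes rose (10.4%) and 76 fell (56.3%), with a median of -0.27. With the median-of-ratios scaling 19 rose (24.4%) and 17 fell (21.8%) on chromosome 19, with a median of 0.069. Both shares were below those of the other genes of that chromosome, 33.9% and 27.6%, with a median of 0.035. Elsewhere 23 ZNF genes rose (17%) and 53 fell (39.3%) with that scaling, with a median of -0.14. Over all tested genes 29.9% rose and 28.9% fell with it. Position and domain both went with the response: medians were 0.005 in KRAB genes on chromosome 19, -0.20 in KRAB genes elsewhere, -0.14 in the 23 genes without a match on chromosome 19 and -0.30 in the 89 elsewhere.

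**Figure D2:**
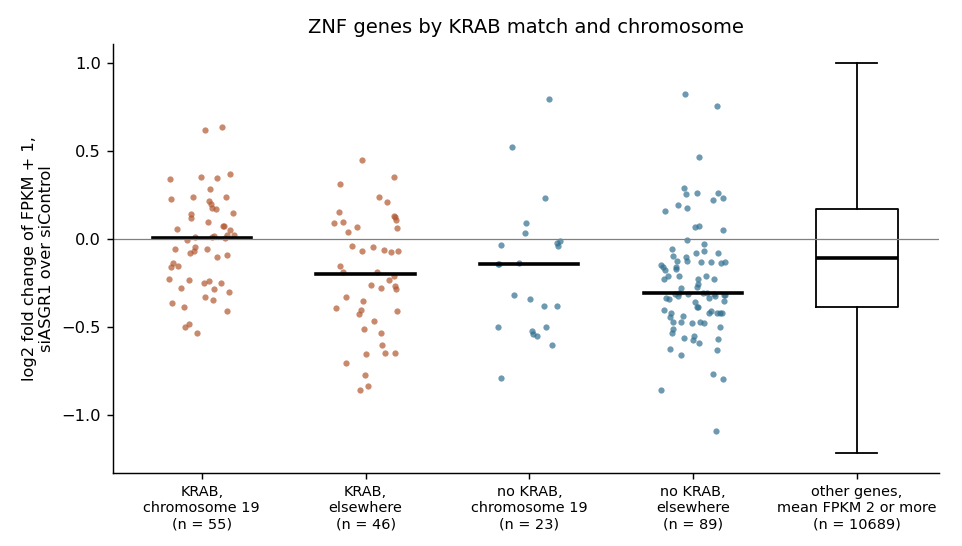
Log2 fold change of FPKM + 1 (siASGR1 over siControl) for ZNF genes split by KRAB match and by chromosome 19, each point a gene and each thick line a median, beside all 10689 other genes with a mean of at least 2 FPKM (box: quartiles and median, outlying genes not drawn). The median is 0.005 for KRAB genes of chromosome 19 and -0.30 for ZNF genes without a match elsewhere.

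Along chromosome 19 the members formed 16 runs separated by gaps of over 1 Mb (GRCh38, GENCODE version 29). The largest run, from ZNF628 to ZNF446 near the end of the long arm (chr19:55476332-58481230), held 29 genes, of which 4 rose and 11 fell, or 7 and 5 with the median-of-ratios scaling. Over all tested genes 20.9% rose and 40.4% fell, or 29.9% and 28.9% with that scaling. No run was tested against these shares, so a mix of both directions does not set this run apart from other genes. Its first genes, without a KRAB match, included ZNF628, ZNF524, ZNF865 and ZNF581, which fell by 0.79, 0.38, 0.54 and 0.60 on the log2 scale. The rest of that stretch, ZNF579, ZNF580, ZNF787 and ZNF444, was not called, at -0.024, -0.0335, -0.013 and -0.14. In the middle stood ZNF134 and its neighbour ZNF211, which rose by 0.79 and 0.63, followed by ZNF776, which rose by 0.28. Genes a short way on, ZNF587 and ZNF417, fell by 0.25 and 0.33, though these calls and that of ZNF524 were lost with the median-of-ratios scaling. This cluster therefore did not move as a block. In the run from ZNF653 to ZNF791 (chr19:11483427-12633840) 2 of 6 genes rose and none fell, namely ZNF627 and ZNF700, and 4 rose with the median-of-ratios scaling. In the run from ZNF841 to ZNF761 (chr19:52064466-53458261), made up of 7 KRAB genes, ZNF160 rose and none fell, and 3 rose with that scaling. ZNF574 and ZNF526, a run of 2 without a KRAB match, fell by 0.50 each. These runs were picked after their values were seen.

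**Figure D3:**
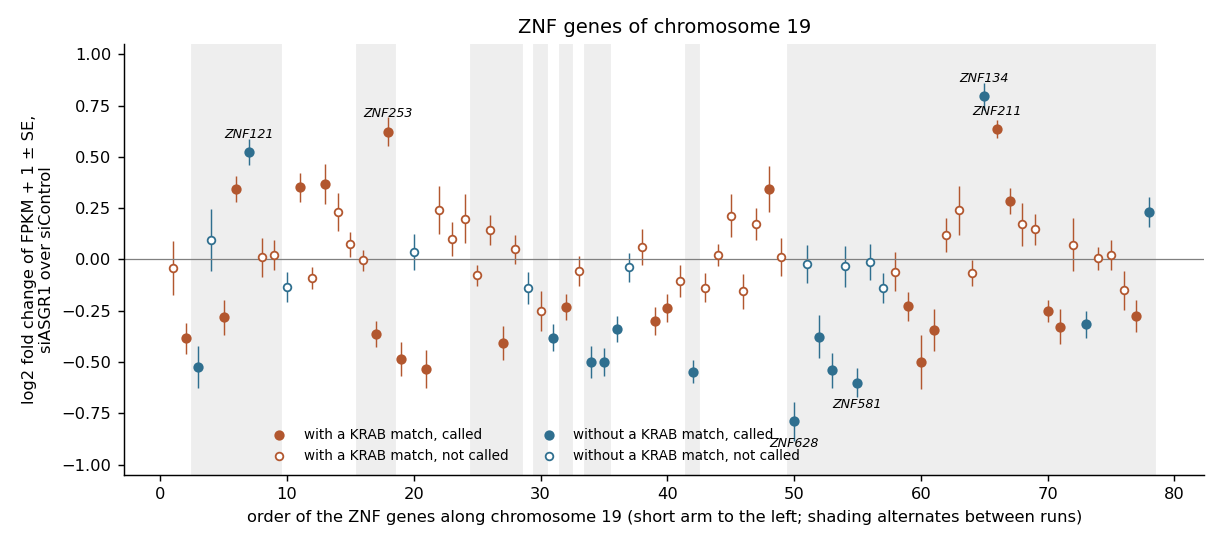
Log2 fold change of FPKM + 1 with its standard error (siASGR1 over siControl, 3 libraries each) for 78 ZNF genes in their order along chromosome 19, filled where called at an adjusted p under 0.05; shading alternates between runs of genes. The last run, with 29 genes, holds both called increases and called decreases, and ZNF134 and ZNF211 lie side by side in it at 0.79 and 0.63.

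Among the members that rose, the largest increase was in ZNF395, a factor linked to hypoxia and to the Huntington disease gene promoter. Its level was 5.31, 5.41 and 5.20 FPKM in siASGR1 against 2.45, 2.87 and 2.40 FPKM in siControl, a log2 fold change of 0.82 ± 0.069 (SE, n = 3 each; adjusted p = 6.3e-05). The siASGR1 mean was 2.06 times the siControl mean, although 34.9% of its exon bases overlap FBXO16 and reads there cannot be assigned with certainty. ZNF134, a C2H2 gene of the chromosome 19 cluster (chr19:57614233-57624723), had 8.18, 6.89 and 7.46 FPKM in siASGR1 against 3.79, 3.90 and 4.0 FPKM in siControl (0.79 ± 0.067, adjusted p = 6.55e-05). Its neighbour ZNF211, which has a KRAB match (chr19:57630395-57642779), had 9.02, 9.21 and 9.30 FPKM in siASGR1 against 5.66, 5.59 and 5.42 FPKM in siControl (0.63 ± 0.045, adjusted p = 3.2e-05). The groups were far apart in both, and ZNF211 varied least among the members with large increases. ZNF629, with 19 fingers, had 3.61, 3.50 and 2.74 FPKM in siASGR1 against 1.57, 1.43 and 1.58 FPKM in siControl (0.76 ± 0.097, adjusted p = 0.00046). Its siASGR1 libraries were less even than those of ZNF211 but stayed clear of siControl. ZNF629 reached the mean of 2 FPKM only through siASGR1.

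4 further increases completed the 8 largest. ZNF253, a KRAB gene of chromosome 19, averaged 4.36 ± 0.17 FPKM in siASGR1 and 2.49 ± 0.23 FPKM in siControl (SD, n = 3 each), and ZNF121 averaged 13.5 ± 0.90 FPKM in siASGR1 and 9.09 ± 0.46 FPKM in siControl. ZNF174, a SCAN-domain repressor, averaged 4.21 ± 0.47 FPKM in siASGR1 and 2.76 ± 0.15 FPKM in siControl. ZNF12, a KRAB gene, averaged 4.61 ± 0.40 FPKM in siASGR1 and 3.10 ± 0.20 FPKM in siControl. Their log2 fold changes were 0.62, 0.52, 0.47 and 0.45, with adjusted p of 0.00025, 0.000324, 0.00217 and 0.00161 in that order. All 4 calls held with the median-of-ratios scaling.

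Among the members that fell, the largest decrease was in ZNF280A, a gene of chromosome 22 with 5 fingers. Its level was 3.83, 3.55 and 4.88 FPKM in siASGR1 against 9.39, 8.98 and 10.98 FPKM in siControl (-1.09 ± 0.11, adjusted p = 0.000159). The siASGR1 mean was 0.418 of the siControl mean, the lowest ratio among the 213 genes. ZNF620, a KRAB gene of chromosome 3, had 3.34, 3.08 and 3.86 FPKM in siASGR1 against 6.73, 6.87 and 7.41 FPKM in siControl (-0.86 ± 0.078, adjusted p = 9e-05). ZNF703, a corepressor known as an oncogene of luminal breast cancer, had 14.45, 14.45 and 12.89 FPKM in siASGR1 against 26.20, 27.91 and 23.99 FPKM in siControl (-0.86 ± 0.069, adjusted p = 5.47e-05). ZNF598, the ubiquitin ligase that marks collided ribosomes, had 14.42, 15.50 and 13.83 FPKM in siASGR1 against 25.70, 27.29 and 23.52 FPKM in siControl (-0.77 ± 0.066, adjusted p = 7.27e-05). ZNF703 and ZNF598 had levels close to each other in both groups, and in both genes every siASGR1 library was well below the lowest siControl library.

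KRAB genes made up 5 of the other 8 large decreases. ZNF510 averaged 3.70 ± 0.61 FPKM in siASGR1 and 7.32 ± 0.061 FPKM in siControl, and ZNF484 averaged 3.57 ± 0.39 FPKM in siASGR1 and 6.79 ± 0.54 FPKM in siControl. ZNF184, ZNF33A and ZNF124 were lower genes, with 2.05 ± 0.39, 1.98 ± 0.10 and 2.26 ± 0.17 FPKM in siASGR1 against 3.95 ± 0.35, 3.69 ± 0.41 and 4.10 ± 0.085 FPKM in siControl. These 5 fell by 0.83, 0.77, 0.70, 0.65 and 0.65 on the log2 scale. Without a KRAB match, ZNF775 fell by 0.79, with 3.00 ± 0.16 FPKM in siASGR1 and 5.94 ± 0.64 FPKM in siControl, and 27.2% of its exon bases overlap another gene. ZNF628 also fell by 0.79, with 1.26 ± 0.20 FPKM in siASGR1 and 2.91 ± 0.27 FPKM in siControl. ZNF628 and ZNF33A reached the mean of 2 FPKM only through siControl. The pseudogene ZNF731P fell by 0.66, with 9.30 ± 0.76 FPKM in siASGR1 and 15.2 ± 0.29 FPKM in siControl. The adjusted p of these 8 ran between 0.000103 and 0.001. The other 2 pseudogenes went opposite ways: ZNF271P rose by 0.29 and ZNF767P fell by 0.47.

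**Figure D4:**
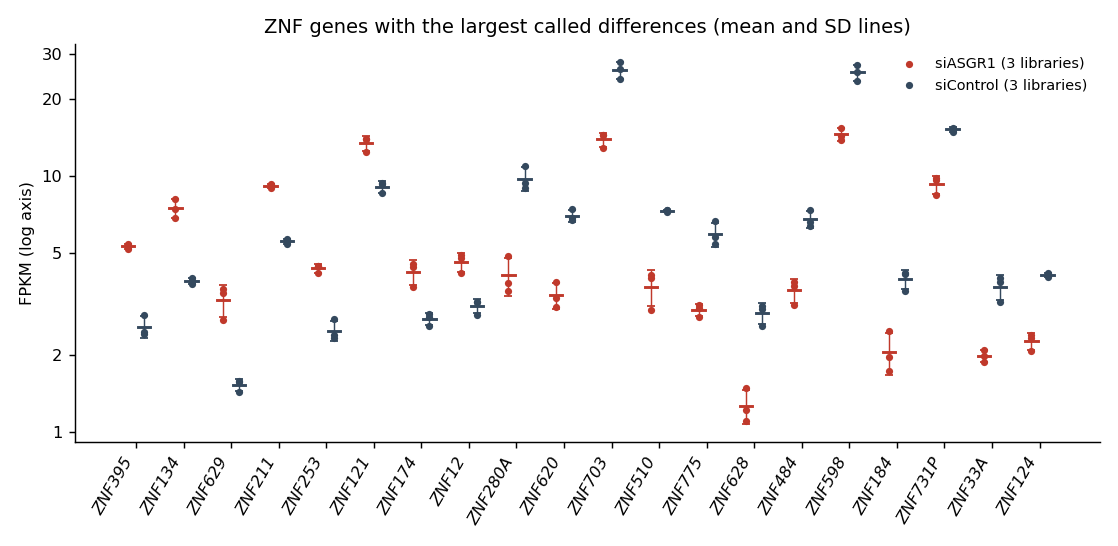
FPKM (log axis) in each siASGR1 library (left of each pair) and siControl library (right) for the 8 members with the largest called increases and the 12 with the largest called decreases, with the mean and SD of 3 libraries as lines. The genes were taken among those whose groups do not overlap: ZNF395 lies at 5.20 to 5.41 FPKM in siASGR1 against 2.40 to 2.87 in siControl, and ZNF280A at 3.55 to 4.88 FPKM against 8.98 to 10.98.

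The members with a mean of at least 20 FPKM fell or were not called. This did not extend far below that level. ZNF664, with a mean of 19.82 FPKM, had 22.07, 21.21 and 21.74 FPKM in siASGR1 against 16.77, 17.17 and 19.99 FPKM in siControl. It rose by 0.26 on the log2 scale (adjusted p = 0.0122), and by 0.41 with the median-of-ratios scaling. ZNF217, an oncogene product that works with the CoREST repressor complex, had 25.18, 24.22 and 24.33 FPKM in siASGR1 against 29.57, 28.71 and 31.57 FPKM in siControl (-0.27 ± 0.046, adjusted p = 0.00172). ZNF445, a KRAB protein that guards genomic imprints, had 20.51, 18.63 and 21.32 FPKM in siASGR1 against 32.33, 30.66 and 30.04 FPKM in siControl (-0.60 ± 0.058, adjusted p = 0.000121). It was the highest KRAB gene, and its groups were far apart. ZNF330, a nucleolar protein, ZNF768 and ZNF581 fell by 0.32, 0.39 and 0.60 on the log2 scale, and 23.4% of the exon bases of ZNF581 overlap ZNF580. ZNF787 had 20.76, 24.06 and 22.57 FPKM in siASGR1 against 25.10, 23.16 and 19.94 FPKM in siControl (-0.013 ± 0.089, adjusted p = 0.908). It was the only member above 20 FPKM whose groups overlapped.

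Genes with a described role were also followed whatever their values, beginning with regulators of transcription and chromatin. The Z3 complex joins ZNF592, ZNF687 and ZNF532 to the chromatin reader ZMYND8. ZNF592 had 13.52, 11.79 and 12.76 FPKM in siASGR1 against 17.96, 18.20 and 17.68 FPKM in siControl (-0.47 ± 0.055, adjusted p = 0.00028), and ZNF687 had 7.05, 6.49 and 6.00 FPKM in siASGR1 against 8.6, 8.16 and 9.11 FPKM in siControl (-0.36 ± 0.068, adjusted p = 0.00299). Both fell, with either scaling, while ZMYND8 had 16.73, 15.62 and 16.52 FPKM in siASGR1 against 9.22, 9.39 and 8.78 FPKM in siControl (0.77 ± 0.048, adjusted p = 1.85e-05), and ZNF532 was under 2 FPKM. ZNF202, a repressor of lipid transport genes in human cells, had 2.22, 2.05 and 2.27 FPKM in siASGR1 against 3.24, 2.83 and 3.40 FPKM in siControl (-0.38 ± 0.078, adjusted p = 0.00402). ZNF202 fell with either scaling.

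Smaller decreases were seen in 4 regulators, and all 4 calls were lost with the median-of-ratios scaling. ZNF143, an activator of small nuclear RNA genes and many promoters, averaged 9.78 ± 0.53 FPKM in siASGR1 and 11.5 ± 0.50 FPKM in siControl (-0.21, adjusted p = 0.0126, or 0.278 with that scaling). ZNF148, which binds GC-rich promoters, averaged 3.16 ± 0.096 FPKM in siASGR1 and 3.81 ± 0.31 FPKM in siControl (-0.21, adjusted p = 0.0307, or 0.27). ZNF644, a partner of the H3K9 methyltransferases EHMT1 and EHMT2, averaged 5.15 ± 0.40 FPKM in siASGR1 and 6.60 ± 0.52 FPKM in siControl (-0.31, adjusted p = 0.00898, or 0.0621). ZNF746 (PARIS), a repressor of the PGC-1α gene, had 2.23, 2.01 and 2.28 FPKM in siASGR1 against 2.73, 2.59 and 2.88 FPKM in siControl (-0.23, adjusted p = 0.0241, or 0.151). The ZNF148 call was also lost without any library other than siControl replicate 2 (adjusted p = 0.0547 to 0.0842). The ZNF746 call was lost without siASGR1 replicate 2 (0.0684), siControl replicate 1 (0.0617) or siControl replicate 3 (0.0669). Increases were seen in ZNF263 and ZNF267. ZNF263 averaged 2.86 ± 0.18 FPKM in siASGR1 and 2.28 ± 0.093 FPKM in siControl (0.23, adjusted p = 0.0209), with 34.3% of its exon bases overlapping TIGD7, and was not called without siASGR1 replicate 3 (0.0776) or siControl replicate 2 (0.0639). ZNF267 had 4.19, 3.74 and 4.08 FPKM in siASGR1 against 3.31, 3.12 and 2.66 FPKM in siControl (0.31, adjusted p = 0.0116). ZNF24, ZNF281, ZNF292 and ZNF335 were not called, at -0.13, -0.12, -0.16 and -0.15, though ZNF24 was called lower without siASGR1 replicate 1 (adjusted p = 0.0216) and ZNF335 without siControl replicate 3 (0.018). ZNF609, a partner of the Integrator complex, was at 0.053 and was called higher with the median-of-ratios scaling or quantile normalization. ZNF274, which directs SETDB1 to ZNF genes themselves, had 4.82, 5.05 and 4.55 FPKM in siASGR1 against 4.99, 4.74 and 4.63 FPKM in siControl (0.005 ± 0.058, adjusted p = 0.95), and its groups overlapped.

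Members that act on RNA, ribosomes or the spindle gave mixed results. ZNF207 (BuGZ), a spindle and kinetochore protein, had 11.15, 10.24 and 11.30 FPKM in siASGR1 against 9.37, 8.93 and 9.24 FPKM in siControl (0.22 ± 0.052, adjusted p = 0.00742). No other of these members rose as deposited. ZNF593, whose yeast relative serves in assembly of the large ribosomal subunit, averaged 4.26 ± 0.99 FPKM in siASGR1 and 6.52 ± 0.21 FPKM in siControl (-0.53, adjusted p = 0.00894). All of its exon bases (100%) overlap its antisense gene ZNF593OS, and since no strand setting is known the reads of the pair cannot be told apart. ZNF622, which also serves the large subunit in yeast, was not called at -0.13, nor were the splicing factors ZNF830 at -0.056 and ZNF326 at 0.18. ZNF622 was called lower without siASGR1 replicate 2 (adjusted p = 0.0405), and ZNF326 was called higher without siControl replicate 3 (0.0195) or with the median-of-ratios scaling. ZNF638, which silences unintegrated retroviral DNA together with HUSH, was not called at -0.16.

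**Figure D5:**
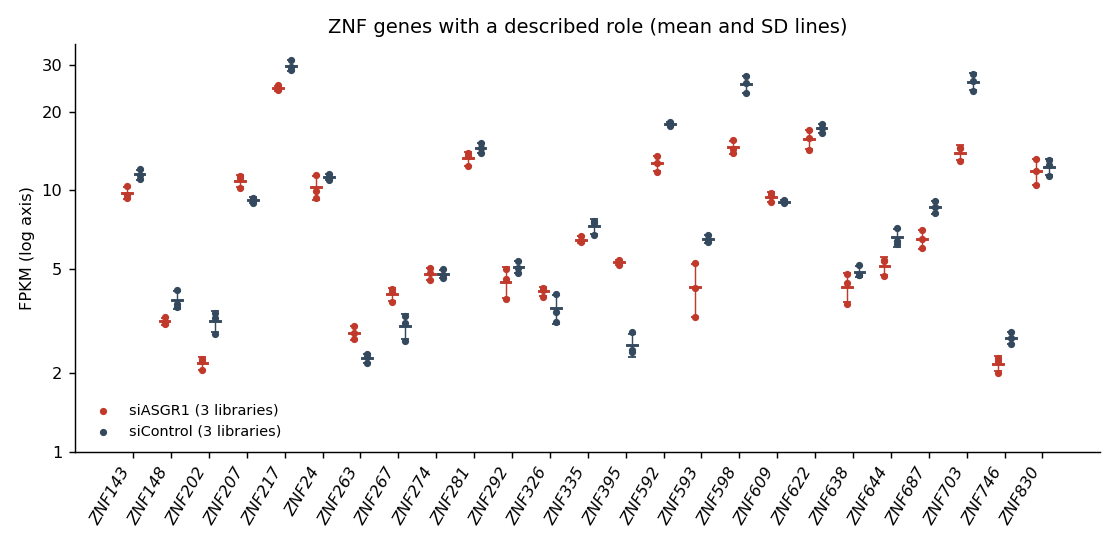
FPKM (log axis) in each siASGR1 library (left of each pair) and siControl library (right) for 25 ZNF genes with a described role, with the mean and SD of 3 libraries as lines. ZNF598 and ZNF703 have the widest gaps below siControl, and ZNF274, ZNF622 and ZNF830 show overlapping groups.

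The partners through which KRAB proteins silence gave as many increases as decreases. Of 29 measured corepressor and heterochromatin genes 10 rose and 10 fell (34.5% each, against 20.9% and 40.4% of all tested genes), with a median log2 fold change of -0.029. With the median-of-ratios scaling 14 rose (48.3%, against 29.9%) and only CBX1 fell (3.45%, against 28.9%). TRIM28 itself had 131.5, 137.0 and 125.4 FPKM in siASGR1 against 102.5, 108.4 and 92.4 FPKM in siControl (0.38 ± 0.065, adjusted p = 0.00189). It lay above the highest siControl library in every siASGR1 library. SETDB1, the methyltransferase it recruits, averaged 5.64 ± 0.11 FPKM in siASGR1 and 6.52 ± 0.20 FPKM in siControl (-0.18, adjusted p = 0.0152), and CBX5 (HP1α) averaged 16.9 ± 1.3 FPKM in siASGR1 and 20.6 ± 1.5 FPKM in siControl (-0.28, adjusted p = 0.0142). Both decreases were lost with the median-of-ratios scaling, and that of SETDB1 also without siControl replicate 2 (adjusted p = 0.0552). ATF7IP, which stabilises SETDB1, was not called at -0.17. Besides TRIM28, the largest increases of the list were CHD3 by 0.80, MTA1 by 0.76, KDM1A by 0.41 and DNMT1 by 0.36, components of repressor complexes and the maintenance DNA methyltransferase. HDAC1, EHMT2, CBX3, DNMT3B and CHD4 rose by 0.33, 0.21, 0.20, 0.19 and 0.14. The largest decrease of the list was in CBX1, by 0.50 (adjusted p = 0.000102).

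The HUSH complex, which silences transposons and retroviral DNA beside KRAB proteins, was split. TASOR, its scaffold, had 6.08, 5.98 and 6.10 FPKM in siASGR1 against 4.35, 4.45 and 4.66 FPKM in siControl (0.36 ± 0.05, adjusted p = 0.000633). MPHOSPH8, its H3K9me3 reader, had 4.19, 4.23 and 4.30 FPKM in siASGR1 against 6.26, 6.69 and 7.33 FPKM in siControl (-0.56 ± 0.063, adjusted p = 0.000238). The groups were separate in both genes, and both calls held with the median-of-ratios scaling. PPHLN1, the third core subunit, was not called at 0.094 and was higher with that scaling. MORC2, the ATPase that works with HUSH, had 12.74, 12.08 and 13.9 FPKM in siASGR1 against 16.36, 15.8 and 15.95 FPKM in siControl (-0.29, adjusted p = 0.00305).

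Among other zinc finger families at the same level, decreases were most of the calls in ZBTB and KLF genes, and increases in ZMYND genes. Of 70 genes in other families gathered by symbol, nearly all of the C2H2 kind, 5 rose (7.14%, against 20.9% of all tested genes) and 45 fell (64.3%, against 40.4%), with a median log2 fold change of -0.31. With the median-of-ratios scaling 10 rose (14.3%, against 29.9%) and 36 fell (51.4%, against 28.9%). Their median was close to that of ZNF genes without a KRAB match. In the ZBTB family, which joins C2H2 fingers to a BTB domain, 1 of 28 rose (3.57%) and 20 fell (71.4%), with ZBTB18 at 3.09 ± 0.25 FPKM in siASGR1 and 6.93 ± 0.54 FPKM in siControl. In the KLF family, 1 of 11 rose (9.09%) and 9 fell (81.8%), with KLF9 at 5.62 ± 0.096 FPKM in siASGR1 and 11.6 ± 0.90 FPKM in siControl. ZBTB18 and KLF9 fell by 0.96 and 0.92 on the log2 scale, and the 9 KLF decreases held with the median-of-ratios scaling. All 3 GLI and GLIS genes fell, led by GLIS3 at -0.89, as did all 3 PRDM genes, with PRDM4 at -0.60, though 1 of the PRDM calls, that of PRDM16, was lost with the median-of-ratios scaling. Among 8 genes with a ZFP symbol 1 rose (12.5%) and 5 fell (62.5%), but this group holds the CCCH proteins ZFP36, ZFP36L1 and ZFP36L2, the last at -0.47. ZSCAN and ZKSCAN genes, close relatives of ZNF genes, gave 1 that rose and 2 that fell of 6, and 1 and 1 of 6, with ZSCAN21 at -0.57 and ZKSCAN8 at -0.35, and their medians were 0.008 and -0.001. Among 5 SP genes 2 fell, SP3 and SP4, and both calls were lost with the median-of-ratios scaling, that of SP4 also without siControl replicate 2 (adjusted p = 0.0532).

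Families with zinc binding folds other than C2H2 had 8 of 49 genes that rose (16.3%, against 20.9% of all tested genes) and 26 that fell (53.1%, against 40.4%), with a median of -0.18. With the median-of-ratios scaling 13 rose (26.5%, against 29.9%) and 16 fell (32.7%, against 28.9%), near the background. All 6 ZFAND genes fell, or 5 with the median-of-ratios scaling, with ZFAND2A at 9.53 ± 0.51 FPKM in siASGR1 and 18.2 ± 0.82 FPKM in siControl. ZC3H4, ZCCHC7, ZDHHC4 and ZMYM1 had the smallest p among the decreases of their families, at -0.79, -0.85, -0.71 and -0.29, and the call of ZMYM1 was lost with the median-of-ratios scaling (adjusted p = 0.0535). The ZMYM median was 0.025, and of 3 ZMYND genes ZMYND8 and ZMYND11 rose by 0.77 and 0.73.

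At the edge of the threshold, ZNF273 and ZNF416 were just inside with means of 2.04 and 2.06 FPKM, and ZNF215 and ZNF506 were just outside with 1.97 FPKM each. ZNF273 had 1.65, 1.51 and 1.5 FPKM in siASGR1 against 2.52, 2.47 and 2.57 FPKM in siControl, and ZNF416 had 2.63, 2.03 and 2.27 FPKM against 1.80, 1.46 and 2.18 FPKM. ZNF215 had 1.26, 1.72 and 1.96 FPKM in siASGR1 against 2.90, 1.74 and 2.24 FPKM in siControl, and ZNF506 had 1.63, 1.65 and 1.54 FPKM against 2.12, 2.26 and 2.64 FPKM. The estimated fragments of a member in its lowest library ranged between 49 and 6493, with a median of 288. ZNF genes arose by duplication, and 25 members shared over 10% of their 50-base stretches with other genes while 25 had over 20% of their exon bases overlapped by another gene, so reads of those members may be split or shared. The median member shared 0.647% of such stretches.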

How the data were processed

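Sequencing libraries were prepared from total RNA (1 µg) of 6 Huh7 samples, 3 siASGR1 and 3 siControl, with a TruSeq kit, per the labels' protocols. The submitters' processing notes name HISAT2 (2.0.1), cutadapt (1.9.1), bcl2fastq (2.17.1.14) and the build hg19. No source used here names the program that counted reads, its annotation or whether it used strand. The authors deposited FPKM values, rounded to 2 decimals, in a table of the whole series, which is named as raw counts, and in a file per library. The design allowed for raw counts, but the values are FPKM, so limma was used.

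Symbols came from the gene name table given with the reference (39538 IDs, 68.3%). Genes with at least 1 FPKM in at least 3 libraries were tested with limma 3.58.1 (R 4.3.3) on log2(FPKM + 1), with a trend in the variance prior, 2-sided, Benjamini-Hochberg adjustment over 13568 genes and a call at 0.05. On simulated counts for 12814 genes the test recovered 12% of changes of 1.2-fold, 88% of 1.5-fold, 98% of 2-fold and 100% of 4-fold, with 9 false calls. Only 49 or 50 genes were changed at each size, with an assumed spread between libraries, whereas 61.3% of tested genes were called in the data. These rates therefore do not give the recovery or false calls of the real test. Depth was rebuilt from FPKM steps with exon lengths of GENCODE version 29 (GRCh38), with 95.6 to 96.3% of values whole, and intervals on it cover counting error only. Rebuilt reads served an alternative. Gene positions, fingers and the KRAB match came from GENCODE version 29, translated here, since no protein table was used. Promoters are RefSeq's.

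The members, lists and tests were chosen with earlier results of these data known. Named are the 8 members with the largest called increase and the 12 with the largest called decrease among those without overlap between groups, the 8 with the highest mean, members of a list of described roles, the 2 members next to the threshold on either side, partner genes, and the called gene with the smallest p in each other family. Genes named beyond these, such as those of chromosome 19 runs, were chosen after their values were seen. Of the lists, UHRF1 and PECAM1 had no matching row. Alternatives were a median-of-ratios and a quantile normalization, a pseudocount of 0.1, other filters and thresholds, no trend, voom on rebuilt reads, the libraries' own files, a replicate block, and leaving out each library.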

Additional observations from a re-analysis of the deposited data

How the results depend on the processing

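The direction of the ZNF median depended on no setting tried, and no member's call turned direction. With median-of-ratios scaling 42 members rose and the median was -0.059; 26 KRAB genes rose and 22 fell (median 0.048), the others had a median of -0.18, 19 rose and 17 fell on chromosome 19, and 23 rose elsewhere. Of 34 KAP1 and HUSH genes (11 higher, 12 lower as deposited) 3 fell; 10 other C2H2 genes rose, and 13 genes of other folds rose and 16 fell. With quantile normalization 55 members rose and 59 fell (median -0.043); 38 KRAB genes rose and 18 fell (0.11), 41 of the others fell (-0.13), 29 rose and 13 fell on chromosome 19, 26 rose and 46 fell elsewhere, 7 partner genes fell and 11 other C2H2 genes rose. With a pseudocount of 0.1 the medians were -0.22 over members and -0.34 without a KRAB match, and with voom on rebuilt reads -0.23 and -0.35. With a threshold of 1 FPKM the medians were -0.14 and -0.23, 56 KRAB genes fell, and 16 rose on chromosome 19. With 5 FPKM 9 of 82 members rose and 49 fell (-0.31); 4 KRAB genes rose and 12 fell (-0.19), 5 of the others rose and 37 fell, 4 rose and 9 fell on chromosome 19, and 5 rose and 40 fell elsewhere. Leaving out each library gave 19 to 25 members that rose and 94 to 98 that fell (median -0.21 to -0.17); KRAB 10 to 13 and 32 to 35 (-0.086 to -0.06); no match 9 to 12 and 61 to 63 (-0.31 to -0.25); chromosome 19 8 to 11 and 22 to 26; elsewhere 11 to 14 and 70 to 74; partners 8 to 12 and 9 to 10; other C2H2 families 4 to 6 and 42 to 45; other folds 7 to 9 and 20 to 22. The cause of these differences was not tested. Shares over all tested genes were taken as deposited (20.9% rose, 40.4% fell) and with the median-of-ratios scaling (29.9% and 28.9%). They are not matched in level to the 5 FPKM threshold. As deposited, 19.8% of other genes at 5 to 10 FPKM rose and 45.7% fell. At 10 to 20 FPKM these shares were 27.1% and 41.6%, and at 20 FPKM or more 38.2% and 33.7%. Counts with quantile normalization, a replicate block or a library left out have no such share beside them. Those counts show how the calls moved, not how ZNF genes stood against other genes. Same-numbered libraries did not deviate together (correlations of -0.019, 0.0021 and 0.0125). These values cannot show whether such libraries came from the same culture, and the labels do not say. With a replicate block 22 members rose and 103 fell. Changes of 1.2-fold were mostly missed in simulated counts where few genes changed. In the data some changes of about that size were called, such as ZNF217 (1.22-fold lower) and ZNF207 (1.19-fold higher).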
